A study of Mus musculus with 64 samples.

Results

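The 9 genes described here are feedback inhibitors of the RAS-ERK pathway: the Sprouty genes Spry1, Spry2 and Spry4, the Spred genes Spred1, Spred2 and Spred3, and the dual-specificity phosphatase genes Dusp4, Dusp5 and Dusp6. They were chosen by name, and all 9 were found among the 39017 genes of the deposited count table. RNA was sequenced from 8 mouse pancreatic tumor lines, each grown alone (mono-culture) or for 48 h with fibroblasts and then sorted for the green fluorescence of the tumor cells (co-culture). With 4 libraries for each line and culture, 64 libraries were analyzed. 7 of the lines are clones of KPC mouse pancreatic cancer (Trp53 +/R172H and Pdx1-Cre, strain background C57BL/6 mixed), so both groups of clones carry the Trp53 allele in both cultures, with recombination driven in the pancreas by Pdx1-Cre. The study placed clones E, H and V in group 1 and clones K, M, N and T in group 2 by their metabolism. The remaining line, KPC1, is in neither group and is known here only by its name, so a genotype beyond the shared strain label was not given for it. Each line stands for 1 clone or culture, the age of the mice was not given, the sources used here do not say whether mono-cultures were sorted or which fibroblasts were used, and nothing says that the 4 libraries of a group came from separate cultures, so the p-values of single lines measure the spread between these libraries, which may be technical.

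Growth factor receptors activate ERK through RAF and MEK, and ERK in turn raises the transcription of its own inhibitors. Sprouty proteins act near the receptors and adaptors and at RAF, and Spred proteins bring neurofibromin to the membrane, where it returns RAS to its inactive form. Dusp4 and Dusp5 encode phosphatases of the nucleus and Dusp6 a phosphatase of the cytoplasm. Dusp5 and Dusp6 are selective for ERK, whereas Dusp4 also acts on other MAP kinases. In cancer cells, transcripts of this family are widely used as a readout of ERK output.

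Library totals ran from 11178721 to 21333683 counts (median 15648009). Levels are given as CPM, read counts scaled to the TMM-adjusted library size, and changes as log2 fold changes of co-culture against mono-culture, positive where co-culture was higher. A change passed the test at an adjusted p-value under 0.1. Of 7 epithelial markers, Krt8, Krt18 and Krt19 were at 1 CPM or more in every line and culture, while Epcam and Cldn4 stayed under 1 CPM in every line. The 12 fibroblast markers summed to 48.3 to 257 CPM per mono-culture library (median 85.3) and to 226 to 1937 CPM per co-culture library (median 855). 6 of the 12, Postn, Dcn, Thy1 and Fap among them, were under 1 CPM in every mono-culture, and 2 of the 12 were under 1 CPM in every co-culture. Fibroblast transcripts thus moved with co-culture in all 8 lines, and their part in the changes below was not tested. In these bulk samples fewer cells of a type and less RNA per cell cannot be told apart.

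The genes do not neighbour each other. Positions for 8 of them (GRCm38, GENCODE M21) were Spry1 at chr3:37639947-37644598, Spry2 at chr14:105891947-105896819, Spred1 at chr2:117121374-117182279, Spred2 at chr11:19924375-20024026, Spred3 at chr7:29158829-29170411, Dusp4 at chr8:34807297-34819894, Dusp5 at chr19:53529109-53542431 and Dusp6 at chr10:99263231-99267489. All are protein coding. Spred3 shares 202 exonic bases with Ggn on the opposite strand, which had 3519 counts in all libraries against 41716 for Spred3. Exons of Spry1 and Dusp5 overlap opposite-strand models by 710 and 547 bases that the count table does not list. Whether strand was used in the counting was not given, so reads in these stretches could not be assigned to one strand here.

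Promoter sequence from RefSeq (GRCm38.p6) was matched for 7 of the 9 genes. The stretches before 3 of them are shown because these genes took different courses in co-culture, Spry1 and Dusp6 lower and Dusp5 higher where it changed. Each is given 5′ to 3′ on the strand of the gene and ends at the base before the annotated start, and capitals mark matches to 4 motifs of factors downstream of ERK or of growth factors.
Dusp5, chr19:53528895-53529108: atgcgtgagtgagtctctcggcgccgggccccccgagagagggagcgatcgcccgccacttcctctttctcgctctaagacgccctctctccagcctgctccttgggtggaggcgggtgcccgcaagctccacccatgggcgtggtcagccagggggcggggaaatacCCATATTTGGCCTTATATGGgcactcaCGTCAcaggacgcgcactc
Spry1, chr3:37639697-37639946: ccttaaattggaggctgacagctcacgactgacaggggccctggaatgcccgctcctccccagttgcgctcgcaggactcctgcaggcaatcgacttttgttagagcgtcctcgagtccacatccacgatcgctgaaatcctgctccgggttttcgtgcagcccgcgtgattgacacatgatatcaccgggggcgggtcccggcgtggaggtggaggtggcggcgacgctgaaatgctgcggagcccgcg
Dusp6, chr10:99262981-99263230: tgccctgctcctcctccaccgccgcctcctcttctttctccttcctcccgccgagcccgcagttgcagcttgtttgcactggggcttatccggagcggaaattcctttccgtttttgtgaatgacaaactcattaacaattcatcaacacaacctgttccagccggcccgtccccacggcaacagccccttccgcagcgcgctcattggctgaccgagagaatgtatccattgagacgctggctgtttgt
The motifs, searched on both strands, were CCGGAAG (ETS factors), TGANTCA (AP-1), TGACG (the core of the cyclic AMP response element) and the CArG box of serum response factor. Dusp5 held 2 CArG boxes side by side, followed by 1 TGACG core on the opposite strand. The 250 bases of Spred2, which was lower in co-culture in 8 of 8 lines, also held 1 TGACG core. A CArG box was found in 1.47% of 32851 promoters of 250 bases and the TGACG core in 17.8%. No ETS or AP-1 letters of this form were found in any of the 7 promoters, against 6.91% and 6.75% of all promoters. A match is a description of letters and not a site of binding.

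Per transcript length, the phosphatases Dusp6 and Dusp4 were the most abundant of the 9 genes. In the authors' RPKM values, the mean over the 8 mono-cultures was 172.37 for Dusp6, 107 for Dusp4, 38.9 for Spry2, 26.5 for Spred2 and 24.6 for Spred1. Spry1 (12.3), Dusp5 (10.3), Spry4 (7.08) and Spred3 (6.72) were at the low end. All 9 genes passed the filter on low counts in every fit.

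The first comparison asked how the feedback genes of the tumor cells differed after co-culture with fibroblasts. Over the 8 lines, 4 of the 9 genes fell in co-culture, at least 1 from each family, and none rose. Spry1 had the largest change, -0.67 ± 0.14 (SE, adjusted p = 0.00521), followed by Spred2 with -0.38 ± 0.080 (SE, adjusted p = 0.00485), Dusp6 with -0.37 ± 0.11 (SE, adjusted p = 0.0206) and Spred1 with -0.29 ± 0.091 (SE, adjusted p = 0.0257). The other 5 did not pass the test, with -0.11 ± 0.082 (SE, adjusted p = 0.314) for Spry2, -0.041 ± 0.066 (SE, adjusted p = 0.638) for Spry4, -0.16 ± 0.17 (SE, adjusted p = 0.455) for Spred3, 0.0038 ± 0.11 (SE, adjusted p = 0.981) for Dusp4 and 0.30 ± 0.15 (SE, adjusted p = 0.132) for Dusp5. Of all 14478 genes tested, 54.6% passed, 27.4% as lower and 27.2% as higher. A share of 4 in 9 is near the background for a change in either direction. The 4 of 9 that fell stand beside the 27.4% of all tested genes that fell. Of the 7909 genes that passed, 3972 were lower. Whether the 9 genes depart from these shares as a set was not tested. The median log2 fold change of the 9 genes was -0.16, and that of all genes was -0.0009. Dusp5 passed in 6 of the other settings tried, among them without clone K (0.41, adjusted p = 0.0385) and without clone M (0.39, adjusted p = 0.0606).

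**Figure D1:**
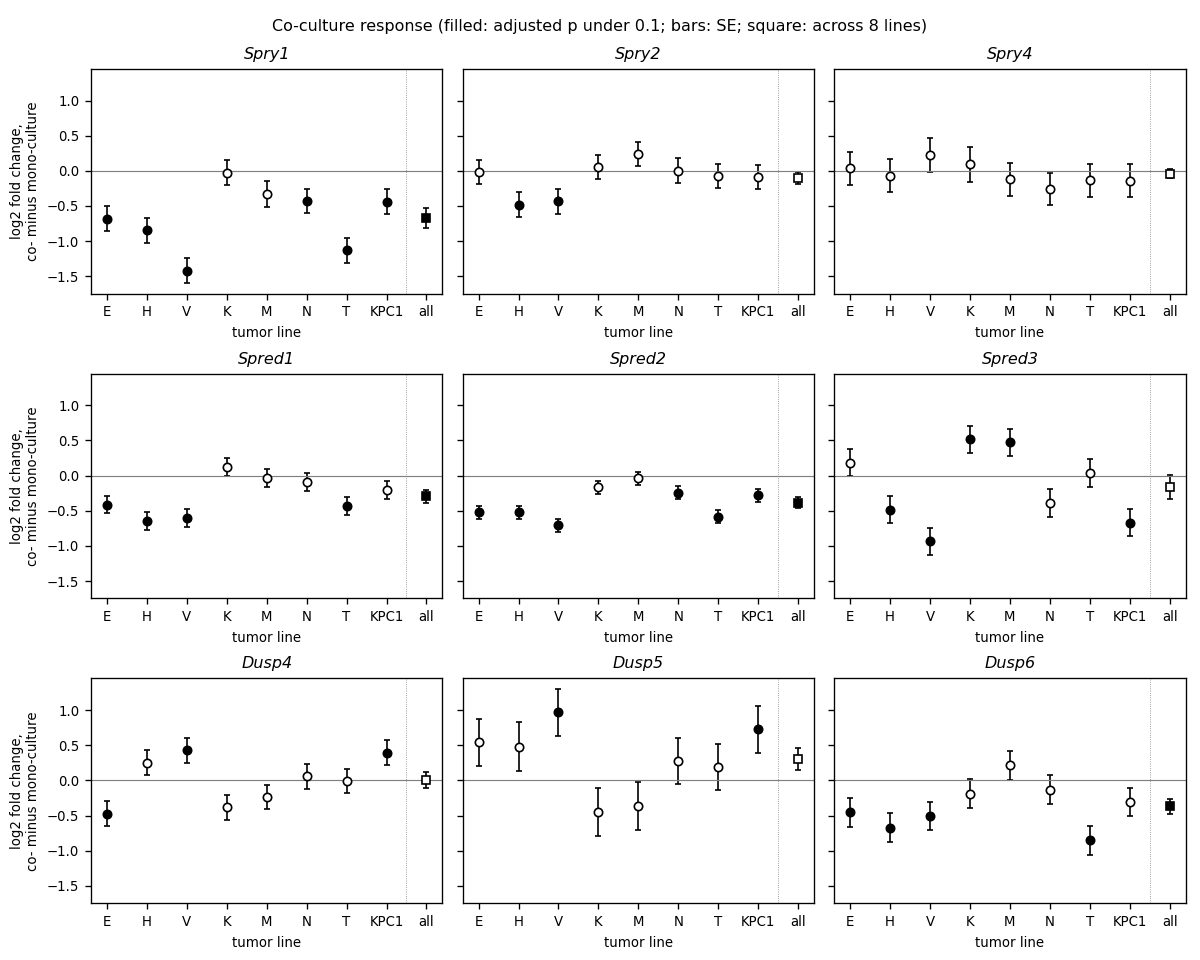
Log2 fold change of co-culture against mono-culture (y axis) for each gene in each of 8 tumor lines (x axis, circles) and across all lines (square), with bars of 1 SE and filled symbols at an adjusted p under 0.1. Spry1 and Spred2 lie at or below 0 in every line, whereas each of the other genes lies on both sides of 0.

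Spry1, which encodes a Sprouty protein that restrains receptor signaling to RAS, was lower in co-culture in 8 of 8 lines and passed the test in 6 of them. In clone V the libraries held 48.3, 48.3, 48.6 and 56.4 CPM in mono-culture and 14.4, 24.7, 15.7 and 20.4 CPM in co-culture. In clone T they held 53.2, 62.9, 66.4 and 58.1 CPM in mono-culture and 28.2, 25.9, 25.7 and 30.01 CPM in co-culture. In clone H they held 33.3, 42.5, 41.03 and 38.9 CPM in mono-culture and 28.1, 22.2, 19.4 and 17.2 CPM in co-culture. In these 3 clones and in clone E every co-culture library was below every mono-culture library, with a log2 fold change of -1.42 ± 0.18 (SE, adjusted p = 3.32e-09) in clone V, -1.13 ± 0.18 (3.21e-07) in clone T, -0.84 ± 0.18 (1.85e-04) in clone H and -0.68 ± 0.18 (0.00119) in clone E. The change was smaller in clone N (-0.43 ± 0.17, adjusted p = 0.0556) and in KPC1 (-0.44 ± 0.18, adjusted p = 0.0532), where the libraries of both cultures overlapped. The call in clone N was lost when libraries numbered 1, 2 or 3 were left out (adjusted p = 0.125, 0.154 and 0.11), and that in KPC1 when libraries numbered 2, 3 or 4 were left out (adjusted p = 0.134, 0.14 and 0.242). In clone N it was also lost without the filter on low counts (adjusted p = 0.102) and with the line fitted alone (adjusted p = 0.13). Clone M did not pass (-0.33 ± 0.18, adjusted p = 0.16), although its 4 co-culture libraries (16.9 to 20.2 CPM) lay below its 4 mono-culture libraries (23.01 to 25.1 CPM) and it passed when clone M was fitted alone (-0.33, adjusted p = 0.00951). Clone K was near 0 (-0.024 ± 0.18), with 31.4, 18.1, 20.9 and 12.8 CPM in mono-culture and 16.5, 22.9, 25.7 and 16.96 CPM in co-culture, and its sign turned when libraries numbered 1 were left out (0.34). Of 14134 genes tested in single lines, 12.5% had a lower mean in 8 of 8 lines.

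The other Sprouty genes passed the test in fewer lines. Spry2 fell in clone H (log2 fold change -0.48 ± 0.17, SE, adjusted p = 0.0253) and clone V (-0.44 ± 0.18, adjusted p = 0.0318) and did not pass in the other 6 lines. In clone H its levels were 107, 115, 124 and 99.1 CPM in mono-culture and 101, 68.4, 95.3 and 54.2 CPM in co-culture, which overlap. In clone V the co-culture libraries (36.05 to 66.9 CPM) were all below the mono-culture libraries (69.8 to 83.03 CPM). The call in clone H was lost when libraries numbered 2 or 4 were left out (adjusted p = 0.17 and 0.13), and that in clone V when libraries numbered 1 were left out (adjusted p = 0.252). Spry4 passed in none of the 8 lines by edgeR (0 at an unadjusted p under 0.05) or by DESeq2, and its libraries overlapped between cultures in each line. Clone N, where Spry4 was highest, held 65.7, 64.7, 119.5 and 116 CPM in mono-culture and 54.01, 80.5, 105 and 64.5 CPM in co-culture.

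Spred1 and Spred2, partners of neurofibromin, followed Spry1 more closely. Spred2 was lower in 8 of 8 lines and passed in clones E, H, V, N and T and in KPC1. Its libraries held 154, 161, 162 and 179 CPM in mono-culture and 84.7, 101, 106 and 109 CPM in co-culture in clone V. In clone T they held 148, 146, 148 and 163 CPM in mono-culture and 109, 95.3, 95.5 and 103 CPM in co-culture. Cultures did not overlap in clones E, H, V, K and T. The log2 fold change was -0.71 ± 0.092 (SE, adjusted p = 7.55e-09) in clone V, -0.58 ± 0.092 (4.11e-07) in clone T, -0.52 ± 0.092 (4.18e-06) in clone E, -0.52 ± 0.092 (1.72e-05) in clone H, -0.28 ± 0.092 (0.0177) in KPC1 and -0.25 ± 0.092 (0.0369) in clone N. The call in clone N was lost when libraries numbered 2 or 4 were left out (adjusted p = 0.122 and 0.285), and that in KPC1 when libraries numbered 2 were left out (adjusted p = 0.161). Without the filter on low counts the call in clone N was lost (adjusted p = 0.146), and with each line fitted alone those in clone N (adjusted p = 0.11) and KPC1 (adjusted p = 0.116) were lost. Clone M was near 0 (-0.036 ± 0.092), and its sign turned when libraries numbered 4 were left out (0.0053).

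Spred1 fell in clones E, H, V and T. Clone H held 257, 251, 244 and 189 CPM in mono-culture and 189.9, 127, 158 and 127 CPM in co-culture. The change there was -0.64 ± 0.13 (SE, adjusted p = 7.25e-05), against -0.61 ± 0.13 (5.65e-05) in clone V, -0.43 ± 0.13 (0.00293) in clone T and -0.41 ± 0.13 (0.00493) in clone E. In clones E, V and T no co-culture library reached the lowest mono-culture library, and in clone H the ranges overlapped by 1 library of each culture. The remaining lines lay between -0.21 in KPC1 and 0.12 in clone K and did not pass. KPC1 passed as lower with the series of running numbers in the labels (1 to 43 or 44 to 64) as a covariate (-0.32, adjusted p = 0.031), when libraries numbered 1 were left out (-0.36, adjusted p = 0.0289) and with limma on log2(RPKM + 1) (adjusted p = 0.0964) and log2(RPKM + 0.1) (adjusted p = 0.0929), and its value was -0.070 when libraries numbered 3 were left out.

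Spred3, the third member of that family, changed in both directions. It fell in clone V (log2 fold change -0.93 ± 0.19, SE, adjusted p = 5.78e-05), KPC1 (-0.67 ± 0.20, 0.0074) and clone H (-0.48 ± 0.19, 0.0427), and it rose in clone K (0.52 ± 0.19, 0.0594) and clone M (0.47 ± 0.20, 0.0568). Clone V held 73.1, 59.8, 83.4 and 83.4 CPM in mono-culture and 38.9, 34.7, 34.05 and 49.2 CPM in co-culture. KPC1 held 44.2, 40.8, 41.1 and 61.1 CPM in mono-culture and 32.8, 33.3, 24.96 and 27.1 CPM in co-culture. The 4 co-culture libraries were below the mono-culture libraries in both lines. Clone K held 35.6, 43.1, 41.9 and 40.6 CPM in mono-culture and 48.7, 54.2, 70.5 and 57.5 CPM in co-culture, with every co-culture library higher. Clone M held 26.8, 27.2, 30.1 and 40.96 CPM in mono-culture and 39.9, 42.04, 44.5 and 47.3 CPM in co-culture, with 1 mono-culture library inside the co-culture range. The increase in clone K lost its call when libraries numbered 1, 3 or 4 were left out (adjusted p = 0.11, 0.277 and 0.137) and that in clone M when libraries numbered 1, 2 or 3 were left out (adjusted p = 0.118, 0.154 and 0.171). The decrease in clone H lost its call when libraries numbered 3 or 4 were left out (adjusted p = 0.129 and 0.251) and that in KPC1 when libraries numbered 4 were left out (adjusted p = 0.117). Clone N did not pass (-0.38 ± 0.20, adjusted p = 0.14) but passed as lower when libraries numbered 1 (adjusted p = 0.0616) or 2 (adjusted p = 0.096) were left out. Of the 14134 genes, 17.8% passed in both directions in different lines. Expression of Ggn, which overlaps Spred3, was not separated from it.

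Dusp6, the cytoplasmic ERK phosphatase and the most abundant of the 9 genes, fell in clones T, H, V and E. Clone T held 642, 569, 766 and 423 CPM in mono-culture and 386, 313, 344 and 286 CPM in co-culture. Clone H held 658, 703, 828 and 564 CPM in mono-culture and 629, 356, 508 and 232 CPM in co-culture. The cultures were separate in clone T and overlapped in clone H, where 1 co-culture library lay within the mono-culture range. The log2 fold changes were -0.85 ± 0.20 (SE, adjusted p = 3.68e-04) in clone T, -0.67 ± 0.20 (0.0075) in clone H, -0.51 ± 0.20 (0.0316) in clone V and -0.45 ± 0.20 (0.0544) in clone E. The call in clone E was lost when libraries numbered 2 were left out (adjusted p = 0.139) and that in clone V when libraries numbered 3 were left out (adjusted p = 0.297). The other lines did not pass and ran from -0.30 in KPC1 to 0.21 in clone M, where the libraries held 339.5, 279.9, 519 and 409 CPM in mono-culture and 349, 325, 609 and 511 CPM in co-culture.

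The nuclear phosphatase genes did not follow Dusp6. Dusp5 rose in clone V (log2 fold change 0.97 ± 0.34, SE, adjusted p = 0.0124) and KPC1 (0.73 ± 0.33, 0.0875). Clone V held 22.4, 19.2, 20.5 and 23.8 CPM in mono-culture and 20.9, 52.1, 55.2 and 39.9 CPM in co-culture. KPC1 held 29.6, 36.04, 27.3 and 22.7 CPM in mono-culture and 63.4, 67.9, 33.8 and 27.3 CPM in co-culture. In clone V 3 of 4 co-culture libraries lay above all mono-culture libraries, and in KPC1 2 of 4 did. The call in KPC1 was lost when libraries numbered 1, 2 or 4 were left out (adjusted p = 0.286, 0.225 and 0.127), and it was also lost with the series of sample numbers as a covariate (0.52, adjusted p = 0.254), where libraries are split by the running number, from 1 to 64, that their labels carry beside the replicate number. Of the KPC1 libraries, 3 of 4 in mono-culture and 1 of 4 in co-culture carry running numbers above 43. In clone K Dusp5 held 23.1, 14.1, 24.6 and 21.8 CPM in mono-culture and 17.6, 15.1, 14.5 and 14.3 CPM in co-culture, and neither clone K (-0.45 ± 0.34) nor clone M (-0.36 ± 0.34) passed. The KPC1 call was lost as well without the filter on low counts (adjusted p = 0.112) and with limma on log2(RPKM + 1) (adjusted p = 0.188) and log2(RPKM + 0.1) (adjusted p = 0.199). Clone E passed as higher when fitted alone (0.55, adjusted p = 0.0334) and not in the fit of all lines (0.54 ± 0.34, adjusted p = 0.166).

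Dusp4 fell in clone E (log2 fold change -0.47 ± 0.18, SE, adjusted p = 0.0211) and rose in clone V (0.43 ± 0.18, 0.0357) and KPC1 (0.39 ± 0.18, 0.0823). Clone E held 236, 207, 317 and 235 CPM in mono-culture and 158, 173, 215 and 171.99 CPM in co-culture. Clone V held 284, 271, 337 and 291 CPM in mono-culture and 298, 353, 536 and 405 CPM in co-culture. KPC1 held 421, 471, 346 and 306 CPM in mono-culture and 558, 551, 542 and 375 CPM in co-culture. Cultures overlapped in all 3 lines. The call in clone V was lost when libraries numbered 3 were left out (adjusted p = 0.171), and that in KPC1 when libraries numbered 1, 2, 3 or 4 were left out (adjusted p = 0.157, 0.106, 0.246 and 0.137). With the series of sample numbers as a covariate the KPC1 value was 0.33 (adjusted p = 0.17), and the call was also lost without the filter on low counts (adjusted p = 0.129), with the line fitted alone (adjusted p = 0.107) and with limma on log2(RPKM + 1) (adjusted p = 0.14) and log2(RPKM + 0.1) (adjusted p = 0.138). Fitted alone, clone H passed as higher (0.27, adjusted p = 0.0297) and clone K as lower (-0.38, adjusted p = 0.0285), and clone K passed with the covariate too (-0.44, adjusted p = 0.0911). The co-culture libraries of clone K (158 to 205 CPM) were all below its mono-culture libraries (221 to 268 CPM). Dusp4 did not pass in clone K in the fit of all lines. In clone M, whose same-numbered libraries deviated together, Dusp4 did not pass (-0.24 ± 0.18, adjusted p = 0.323) and passed as lower with the library number as a block (-0.24, adjusted p = 0.0603).

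**Figure D2:**
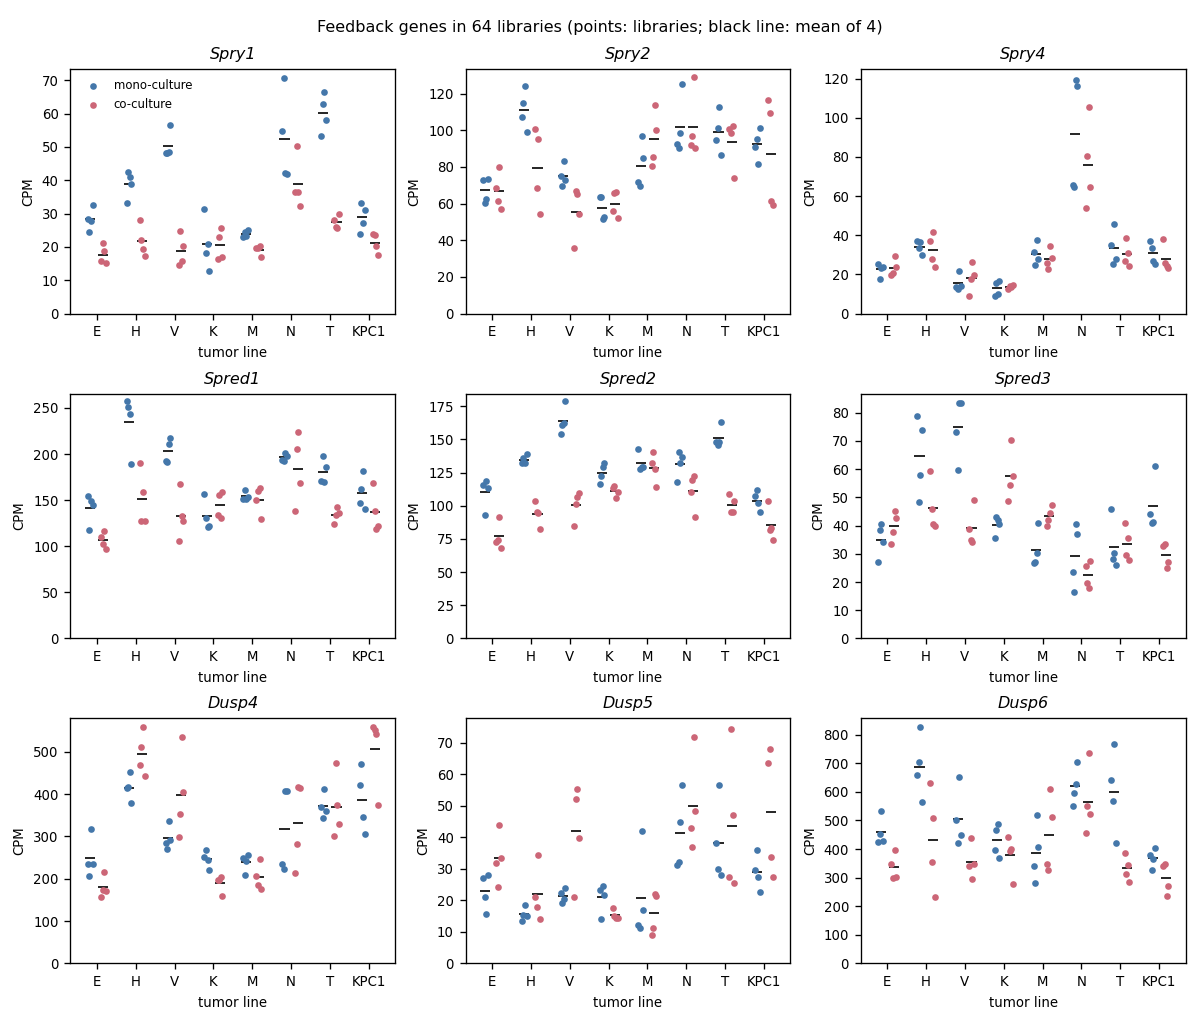
CPM of each gene (y axis, from 0) in the 4 libraries of each tumor line (x axis) in mono-culture (blue) and co-culture (red), with the mean of 4 as a black line. Spry4 in clone N stands above all other lines in both cultures, and Spry1 is lower in co-culture in clones E, H, V, M and T with no overlap of libraries.

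Counted by line, the genes that passed were 5 of 9 in clone E (background 61.3% of genes), 6 in clone H (44%), 8 in clone V (61.5%), 1 in clone K (20.5%), 1 in clone M (38.9%), 2 in clone N (37.4%), 4 in clone T (62.2%) and 5 in KPC1 (39.2%). Lower members numbered 5 in clone E (29.2% of genes lower), 6 in clone H (22.6%), 6 in clone V (31.5%), 0 in clone K (8.02%), 0 in clone M (17.3%), 2 in clone N (17.4%), 4 in clone T (30.7%) and 3 in KPC1 (19%). Higher members numbered 0 in clone E (32.1% of genes), 0 in clone H (21.4%), 2 in clone V (30%), 1 in clone K (12.5%), 1 in clone M (21.6%), 0 in clone N (20%), 0 in clone T (31.5%) and 2 in KPC1 (20.1%). At an unadjusted p under 0.05, 2 members passed in clone K and 1 in clone M. Members whose 4 co-culture libraries all lay below the 4 mono-culture libraries numbered 4 in clone E (21.5% of genes), 2 in clone H (17.8%), 5 in clone V (24.9%), 2 in clone K (8.19%), 1 in clone M (17.9%), 0 in clone N (9.81%), 4 in clone T (23.7%) and 1 in KPC1 (11.6%). In clone K all 4 lay above for 1 member, Spred3 (11.1% of genes).

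Whether the 8 lines differed in their response was tested directly by an F test over the responses. It passed for 7 of the 9 genes: Spred3 (adjusted p = 1.41e-05), Spry1 (6.32e-05), Spred2 (7.56e-05), Spred1 (7.54e-04), Dusp4 (0.0046), Dusp6 (0.0297) and Dusp5 (0.0797). Spry2 (0.112) and Spry4 (0.889) did not pass. The background was 71.3% of 14134 genes. The call for Dusp6 was lost when libraries numbered 2 (adjusted p = 0.146) or 3 (0.139) were left out, and that for Dusp5 when libraries numbered 1 (0.152), 3 (0.338) or 4 (0.115) were left out.

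Each line's response was also set against the mean response of the other 7. Clone K departed for 6 of 9 genes (background 34.2%). Its responses were above the mean of the others for Spred3 (0.77 ± 0.21, adjusted p = 0.0043), Spry1 (0.73 ± 0.19, adjusted p = 0.00362), Spred1 (0.47 ± 0.13, adjusted p = 0.00704) and Spred2 (0.25 ± 0.10, adjusted p = 0.0538), and below it for Dusp5 (-0.85 ± 0.37, adjusted p = 0.0785) and Dusp4 (-0.44 ± 0.19, adjusted p = 0.0746). Clone V departed for 5 genes (background 31.7%) in the opposite directions: below for Spred3 (-0.89 ± 0.21, adjusted p = 9.82e-04), Spry1 (-0.87 ± 0.19, adjusted p = 4.42e-04), Spred2 (-0.37 ± 0.10, adjusted p = 0.00343) and Spred1 (-0.36 ± 0.13, adjusted p = 0.0384), and above for Dusp4 (0.48 ± 0.19, adjusted p = 0.0518). Clone M departed for 3 genes (background 26.3%), Spred3 (0.72 ± 0.21, adjusted p = 0.0105), Dusp6 (0.66 ± 0.22, adjusted p = 0.0257) and Spred2 (0.40 ± 0.10, adjusted p = 0.00275), all above. Clone T departed for 3 genes (background 27%), Spry1 (-0.54 ± 0.19, adjusted p = 0.0342), Dusp6 (-0.56 ± 0.22, adjusted p = 0.0578) and Spred2 (-0.23 ± 0.10, adjusted p = 0.0876), all below. Clone E departed for Dusp4 (-0.54 ± 0.19, adjusted p = 0.0317; background 29.4%), clone H for Spred1 (-0.41 ± 0.13, adjusted p = 0.0444; background 13.2%) and KPC1 for Spred3 (-0.58 ± 0.21, adjusted p = 0.0382) and Dusp4 (0.44 ± 0.19, adjusted p = 0.0861; background 27.6%). Clone N departed for 0 of the 9 genes (background 6.95%; 0 at an unadjusted p under 0.05). The 4 mono-culture libraries of clone K all carry running numbers above 43 and those of clone V running numbers up to 43. The mono-cultures of clone N and both cultures of clone E also carry only running numbers up to 43. Within clones K, V, N and E alone, series and line cannot be told apart in mono-culture. Clones H, M and T and KPC1 held libraries of both series in each culture. With the series as a covariate, no member gained or lost its call in the F test over responses. The departures of single lines were not run with that covariate. The summed fibroblast markers averaged 1263 CPM in co-cultures of clone K and 740.4 CPM in those of clone V, and the part of this difference in the responses was not tested.

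Over the 32 co-culture libraries, taken as deviations from their group means, the summed fibroblast markers were weakly related to the 9 genes. Pearson's r of log2 values ran from -0.10 for Dusp6 to 0.39 for Spry4 and was 0.11 for Spry1. The points share their libraries and scaling, and r is given as a description.

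The next comparison asked how the lines differed when grown alone. All 9 genes differed among the 8 mono-cultures by the F test, as did 95.1% of all genes. Spry4 had the widest range. Its mean was 91.5 ± 30.4 CPM (SD, n = 4) in clone N, 34.3 ± 3.25 CPM in clone H and 12.96 ± 3.93 CPM in clone K, so that clone N was 7.06 times as high as clone K. Clone N exceeded the next line, clone H, by 1.42 ± 0.23 on the log2 scale (SE, adjusted p = 1.06e-06). The 4 libraries of clone N fell into a lower and a higher pair, 65.7, 64.7, 119.5 and 116 CPM, both above every library of the other 7 lines in mono-culture. Clones T, KPC1, M and H lay between 30.4 and 34.3 CPM, and neighbours among them did not differ. In co-culture clone N was again highest and clone K lowest, with 5.52 times between their means.

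For Spry1 the means in mono-culture, in CPM, were in the order T (60.2), N (52.4), V (50.4), H (38.9), KPC1 (28.9), E (28.3), M (23.99), K (20.8). Adjacent lines in that order differed at 2 steps, between clones V and H (0.37 ± 0.17 on the log2 scale, adjusted p = 0.089) and between clone H and KPC1 (0.43 ± 0.18, adjusted p = 0.0423). Clone T exceeded clone K 2.89 times. For Spry2 the order was H (111), N (102), T (98.9), KPC1 (92.3), M (80.8), V (75.2), E (67.4), K (57.8). Neighbouring lines were not distinguished at any step of it, and the ends differed 1.92 times (adjusted p = 8.02e-06). Clone K was lowest in mono-culture for all 3 Sprouty genes and for Spred1.

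Spred1 ran in the order H (235), V (203), N (196), T (181), KPC1 (158), M (154), E (141), K (133), and Spred2 in the order V (164), T (151), H (135), M (132), N (132), K (125), E (110.3), KPC1 (104). Of neighbouring lines, only clones K and E differed for Spred2 (0.18 ± 0.09 on the log2 scale, adjusted p = 0.0988), and none did for Spred1. The ends of the order differed 1.77 times for Spred1 and 1.58 times for Spred2. Spred3 ran in the order V (74.9), H (64.7), KPC1 (46.8), K (40.3), E (34.96), T (32.5), M (31.3), N (29.4), a different sequence in which clones V and H led. The step between clone H and KPC1 passed the test (0.47 ± 0.19, adjusted p = 0.0445). In co-culture the highest Spred3 mean was that of clone K (57.7 CPM) and clone V had 39.2 CPM.

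Among the phosphatases, Dusp6 ran in the order H (688), N (619), T (600.1), V (506), E (459.6), K (431), M (387), KPC1 (369), Dusp4 in the order H (416), KPC1 (386), T (371), N (319), V (296), E (249), K (247), M (239) and Dusp5 in the order N (41.2), T (38.1), KPC1 (28.9), E (22.9), V (21.5), K (20.9), M (20.6), H (15.6). Neighbours did not differ at any step of these 3 orders. The highest and lowest lines differed 1.86 times for Dusp6 (adjusted p = 3.46e-04), 1.74 times for Dusp4 (1.25e-04) and 2.65 times for Dusp5 (5.45e-04). Clone H was thus highest for both Dusp4 and Dusp6 and lowest for Dusp5. Over 11832 genes with a mean of at least 1 CPM, the median ratio of the highest to the lowest line was 2.14.

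Each clone counted once in the comparison of the study's metabolic groups. In this fit of 3 against 4 clones, 0 of 9 genes passed between group 1 and group 2 in mono-culture, and 0 of 14829 genes passed at all (edgeR, background 0%), with 766 genes at an unadjusted p under 0.05. DESeq2 called 117 genes. Spred3 came nearest of the members, with a log2 fold change of group 1 over group 2 of 0.80 ± 0.27 (SE, adjusted p = 0.888). Its clone means were 74.9 CPM in V, 64.7 in H and 34.96 in E, against 40.3 in K, 32.5 in T, 31.3 in M and 29.4 in N, so clone E lay within the range of group 2. Without clone E the value was 1.07 and passed (adjusted p = 0.0897), in a fit where 217 genes passed in all. That fit leaves out the group 1 clone that lay within the range of group 2. Spry4 averaged 24.2 ± 9.48 CPM in group 1 (SD, n = 3 clones) and 42.1 ± 34.2 CPM in group 2 (n = 4 clones), a spread set by clone N. Dusp6 averaged 551 ± 121 CPM in group 1 (SD, n = 3 clones) and 509 ± 118 CPM in group 2 (n = 4 clones).

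Libraries of 1 line and culture also varied in these genes together. After subtraction of each group's mean, 5 genes, Spry2, Spry4, Dusp4, Dusp5 and Dusp6, were positively related over the 64 libraries in all 10 of their pairs, with Pearson's r between 0.32 and 0.72. These 5 were picked after the values were seen. The highest values were 0.72 for Spry2 with Dusp5, 0.71 for Spry2 with Dusp6 and 0.69 for Spry4 with Dusp4. Within mono-cultures the same pairs ran from 0.32 to 0.68, and within co-cultures from 0.27 to 0.79. Over all 36 pairs of the 9 genes the median was 0.32. In KPC1 co-cultures, for example, libraries 1 and 2 had 117 and 109.7 CPM of Spry2 and libraries 3 and 4 had 61.6 and 59.5 CPM, and Dusp5 and Dusp6 were also higher in the first pair. Libraries share their scaling and depth, and r is a description with no test.

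Over the means of the 16 line and culture groups, r of the 36 pairs ran from -0.68 for Spred3 with Dusp5 to 0.85 for Spred1 with Dusp6. Both cultures of each line are among these 16 points, so a fall in co-culture that a pair shares adds to its r, as for Spry1, Spred1, Spred2 and Dusp6 (0.68 to 0.85 over their 6 pairs), which were picked here because they fell.

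**Figure D3:**
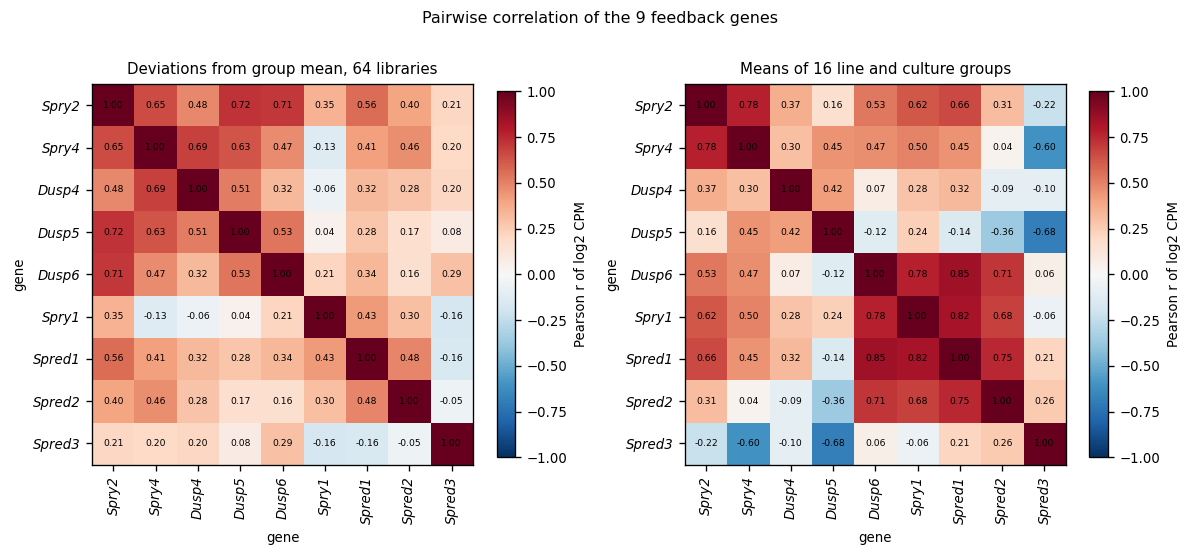
Pearson's r of log2 CPM for each pair of the 9 genes (both axes, color scale from -1 to 1), over deviations from group means in 64 libraries (left) and over the means of 16 line and culture groups (right). Spry2, Spry4, Dusp4, Dusp5 and Dusp6 form the positive block at the upper left of the first panel, and Spred3 with Dusp5 is the most negative pair of the second (-0.68).

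The genes whose 16 group means were most like each member, among 12035 genes with a mean of at least 1 CPM, were the following, with r in parentheses. For the Sprouty genes they were Adra1b (0.85) and Marc2 (0.83) with Spry1, Usp6nl (0.89) and Neurl3 (0.89) with Spry2 and Trim14 (0.92) and Mia3 (0.92) with Spry4. Marc2 is listed as a date in the deposited table and was named from its identifier. For the Spred genes they were Rara (0.95) and Brd8 (0.90) with Spred1, Zfp467 (0.96) and Tnrc6b (0.95) with Spred2 and Ccdc88c (0.96) and Rp2h (0.87) with Spred3. For the phosphatases they were Cltc (0.92) and Fndc3a (0.88) with Dusp4, Stom (0.94) and Taf5l (0.92) with Dusp5 and Fam43a (0.87) and 9930013L23Rik (0.86) with Dusp6. Each is the top 2 of many genes over few points.

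Other genes of the pathway were tested across the 8 lines in the same fit. Of 68 listed, 66 were tested, and 15 rose and 20 fell, shares near the 27.2% of all genes that rose and the 27.4% that fell. Among 14 listed receptors and adaptors 2 rose and 6 fell of 13 tested, with Gab1, an adaptor downstream of receptor tyrosine kinases, at -0.86 ± 0.17 (SE, adjusted p = 0.004). Gab1 line means ran from 15.8 to 55.97 CPM in mono-culture and 7.17 to 44.9 CPM in co-culture. Among Ras, Raf, MEK and ERK genes 3 rose and 3 fell of 11 tested. Among other negative regulators 1 rose and 4 fell of 12 tested, and among other MAP kinase phosphatases 2 rose and 0 fell of 6 tested, with Dusp9, a further cytoplasmic ERK phosphatase, at 1.57 ± 0.25 (SE, adjusted p = 0.00206). Dusp9 line means ran from 4.23 to 62.3 CPM in mono-culture and 15.2 to 116 CPM in co-culture. It was higher in co-culture in 8 of 8 lines, the opposite of Dusp6 in its mean over lines.

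Among ERK-responsive transcripts 7 rose and 7 fell of 24 tested, also near these shares of all genes. The immediate early genes Fos and Fosb, which encode AP-1 subunits, were lower in 8 of 8 lines and fell across lines, with log2 fold changes of -1.61 ± 0.29 (SE, adjusted p = 0.0029) and -1.36 ± 0.23 (SE, adjusted p = 0.00252). Fos line means ran from 47.6 to 680.1 CPM in mono-culture and 16.6 to 331 CPM in co-culture. The AP-1 gene Fosl1 rose, with 1.14 ± 0.16 (SE, adjusted p = 0.00134), as did Areg, which encodes the EGF receptor ligand amphiregulin, with 2.03 ± 0.41 (SE, adjusted p = 0.00433). Areg line means ran from 0.439 to 46.4 CPM in mono-culture and 1.58 to 97.8 CPM in co-culture. Both were higher in 8 of 8 lines. The median change was 0.045 for this list and -0.30 for receptors and adaptors, beside -0.16 for the 9 feedback genes and -0.0009 for all genes.

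**Figure D4:**
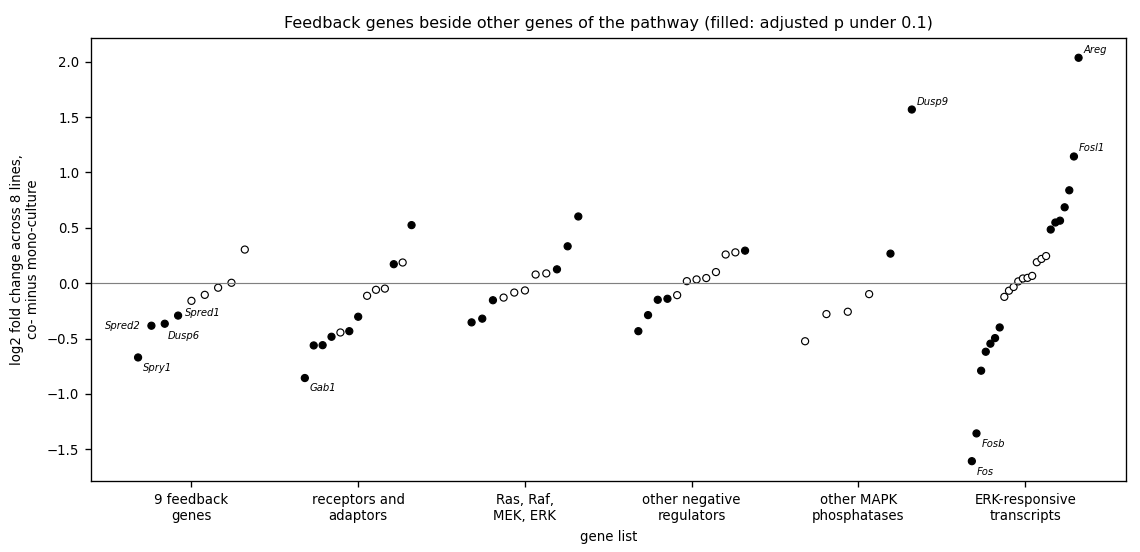
Log2 fold change of co-culture against mono-culture across 8 lines (y axis) for the 9 feedback genes and 5 lists of other pathway genes (x axis, genes sorted within each list), filled at an adjusted p under 0.1. The filled feedback genes are all below 0, whereas the ERK-responsive transcripts run from Fos (-1.61) to Areg (2.03).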

How the data were processed

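RNA was profiled by strand-specific poly(A) RNA sequencing of 64 libraries from 8 mouse pancreatic tumor lines. The authors deposited whole-number read counts for 39017 genes, made with featureCounts on mm10 per the labels, and RPKM values for 49585 genes from edgeR. Tool versions and the strand setting were not given in the sources used here. Samples were grouped by the line and culture in the labels, and clones by the group the study gave them. All columns were used. A further allele that the clones carry is not reported here.

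From the counts, edgeR 4.0.16 in R 4.3.3 was run with TMM scaling, filterByExpr and the quasi-likelihood test, with Benjamini-Hochberg adjustment over all genes and a threshold of 0.1. The threshold is that of the study, which used DESeq2 between the groups of clones. The response in each line, its difference between lines and the levels in mono-culture came from 1 fit of 64 libraries in 16 groups. The response across lines used 16 sums of 4 libraries with the line as a covariate, and the groups of clones used 7 sums. Log2 CPM used a prior count of 0.5. The scripts were tested on simulated data.

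The genes and lists were chosen with earlier results of these data known. Named were all 9 members, the 2 genes most like each and up to 3 pathway genes per direction with the largest change of 1 sign in 8 lines. The pathway lists were receptors and adaptors, Ras to ERK, other negative regulators, other phosphatases and ERK-responsive transcripts. Immune and endothelial markers summed to 2.31 to 57.5 and 0 to 11.99 CPM per library. Most of the immune sum was Cd68, with line means of 3.91 to 18.5 CPM in mono-culture and 11.8 to 40.5 CPM in co-culture. The immune markers Ptprc, Lyz2 and Cd3e were under 1 CPM in every line and culture.

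Libraries of a group were never duplicates (chi-square per gene 4.46 to 65.5 over 96 pairs). Same-numbered libraries of both cultures deviated together (r over 0.1) in 22 of 32 pairs, and in every pair of clones V, M and N, where the number was taken to pair them. DESeq2 1.42.0, RLE scaling, no count filter (1 count in any library), a threshold of 0.05, each line alone, each replicate or line left out, the number or the series of sample numbers (1 to 43 or 44 to 64) as a term, and limma 3.58.1 on log2(RPKM + 1) and log2(RPKM + 0.1), for genes of at least 0.5 RPKM in 4 libraries, were the alternatives.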

Additional observations from a re-analysis of the deposited data

Results flagged for a closer look

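Single libraries stood apart from the other 3 of their group, by a gap above Dixon's critical value, in 5 of 144 sets of a gene and a group and in 1 of 16 sets of library totals. Chance flags about 1 in 20 such sets, or 8 of 160. Gaps and ranges of genes were taken on log2 CPM, although CPM is printed below, and those of library totals on counts. Spred2 in mono-culture library 1 of clone M was at 142 CPM against 128 to 129 CPM in the other 3 libraries, a gap of 0.919 of the range. Spred2 in mono-culture library 4 of clone T was at 163 CPM against 146 to 148 CPM in the other 3 libraries, a gap of 0.861 of the range. Spry1 in mono-culture library 4 of clone V was at 56.4 CPM against 48.3 to 48.6 CPM in the other 3 libraries, a gap of 0.958 of the range. Spry2 in co-culture library 4 of clone T was at 73.8 CPM against 98.4 to 102 CPM in the other 3 libraries, a gap of 0.882 of the range. Dusp4 in co-culture library 4 of KPC1 was at 375 CPM against 542 to 558 CPM in the other 3 libraries, a gap of 0.927 of the range. The total of co-culture library 2 of KPC1 was 11178721 counts against 16016171 to 16755693, a gap of 0.867 of the range.

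The co-culture response differed between lines, by an F test in edgeR, for 7 of the 9 genes. The responses of Spred3 ran from -0.93 to 0.52 on the log2 scale (adjusted p = 1.41e-05). Those of Spry1 ran from -1.42 to -0.024 on the log2 scale (adjusted p = 6.32e-05). The responses of Spred2 ran from -0.71 to -0.036 on the log2 scale (adjusted p = 7.56e-05). Those of Spred1 ran from -0.64 to 0.12 on the log2 scale (adjusted p = 7.54e-04). The responses of Dusp4 ran from -0.47 to 0.43 on the log2 scale (adjusted p = 0.0046). Those of Dusp6 ran from -0.85 to 0.21 on the log2 scale (adjusted p = 0.0297). The responses of Dusp5 ran from -0.45 to 0.97 on the log2 scale (adjusted p = 0.0797). The background was 71.3% of genes.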

How the results depend on the processing

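Across lines, the decreases of Spry1, Spred1, Spred2 and Dusp6 kept their direction and passed in every alternative run, and over the 9 genes 157 of 171 values kept their direction and call. Dusp5 passed as higher with the 64 libraries as replicates (0.31) and with these and a replicate block (0.28). It also passed without clone K (0.41) or M (0.39). With library numbers 1 to 43 alone it passed too (0.62), but that setting also drops clone K, whose mono-cultures carry no such numbers. With 1 library number left out at a time Dusp5 ran from 0.21 to 0.37. Dusp4, at 0.0038, turned negative with the replicate block (-0.00069), without clone H (-0.021), V (-0.060) or N (-0.0038) or without KPC1 (-0.041), and ran from -0.036 to 0.037 with a library number left out. Spry4 turned positive with numbers 1 to 43 alone (0.10), where clone K is again left out. The cause was not tested.

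For the difference between lines, Spry2 passed with the replicate block (adjusted p = 0.0301). Dusp5 (0.0797) missed the stricter threshold of 0.05, and its adjusted p ran from 0.0994 to 0.338 with a library number left out, and that of Dusp6 from 0.0485 to 0.146. All 9 genes kept their calls between mono-cultures in all 90 alternatives.

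Between the groups of clones, 0 genes passed, 1 without the count filter, 1 in co-culture libraries, 1 without clone M, 217 without clone E, 117 with DESeq2, 3925 with the 28 libraries as replicates, which counts libraries of 1 clone as independent, and 3619 with these and a replicate block. Dusp5 turned from -0.58 to 0.050 in co-culture libraries. Of 6 other genes that passed in no setting, 6 turned sign in at least 1.

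In single lines, genes called in clone K (2894) ran from 1851 to 2558 with a library number left out and in clone M (5495) from 3485 to 5002. Fitted alone, clone N gave 3315 and KPC1 3525 genes, in place of 5285 and 5534. Spry1 in clone K turned positive with the replicate block (0.023) and with limma on RPKM (0.060 and 0.074), and ran from -0.15 to 0.34 with a number left out. Spred2 in clone M turned positive with limma (0.040 and 0.041), and ran from -0.10 to 0.0053. Of 546 values for single genes and lines, 52 lost a call and 15 gained one. A further 30 gene and line pairs passed in no setting, and 15 of them turned sign. Beyond Dusp4 in clone M, the replicate block changed no call of the 9 genes in clones V, M and N. In lines where same-numbered libraries were not shown to pair, it added calls for Dusp5 in clone E, Dusp4 in clone H and Dusp4 in clone K. Whether depth limited these calls was not tested, and the lowest of the genes, Dusp5, had 29708 counts in all.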

Other observations

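Dusp4 and Spry4 in mono-cultures of clone N fell into the same 2 pairs of libraries, with 236, 223, 408 and 407 CPM of Dusp4 in libraries 1 to 4 and 65.7, 64.7, 119.5 and 116 CPM of Spry4. Spry1 ran the other way in these libraries, at 54.8, 70.5, 42.1 and 41.9 CPM. Over all mono-culture libraries, these 4 among them, r between Spry1 and Spry4 as deviations from group means was -0.53. Over co-culture libraries it was 0.26, and over all 64 libraries -0.13. The pair was picked after the values were seen, and r is a description with no test. All 4 mono-culture libraries of clone N carry running numbers up to 43.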
